A study of Mus musculus with 371 samples.

Results

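Conventional CD4 T cells and CD8 T cells taken from the same kind of tumour were compared gene by gene, in wild-type mice and in mice labelled as lacking the IL-27 receptor subunit Il27ra. A cell was included when at least 1000 genes stood at 1 FPKM or more and the regulatory T cell factor Foxp3 was under 1 FPKM. FPKM is a read count scaled for transcript length and library size. The rule kept 71.4% of all single cells of the series: 39 of 94 in the WT CD4 sort, 54 of 93 in the KO CD4 sort, 90 of 94 in the WT CD8 sort and 82 of 90 in the KO CD8 sort. The cells were thus chosen by their Foxp3 value and their number of genes, so neither is a finding here. The highest Foxp3 value among the included cells was 0.67 FPKM and the lowest among the cells left out for Foxp3 was 9.65 FPKM, so no cell lay between these values. Foxp3 was above 0 in 1 included KO CD4 cell and 1 included KO CD8 cell. Included cells began at 1006 genes, and the cells left out for too few genes ended at 996. Among cells with enough genes, Foxp3 set aside 46 of 85 in the WT CD4 sort, 35 of 89 in the KO CD4 sort, 4 of 86 in the KO CD8 sort and 0 of 90 in the WT CD8 sort.

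The study looked at genes that IL-27 controls in T cells inside tumours. All mice were C57BL/6 and carried B16F10 melanoma, a transplantable mouse tumour line, and they were either wild type or IL27raKO. Single cells were sorted into plates and read by Smart-seq2, which makes full-length cDNA from 1 cell, with 21 cycles of amplification. The CD4 and CD8 sorts are named in the sample titles, while the protocol text speaks of CD8+ cells for every sample. Each of the 4 groups carries 1 animal word and 1 number in its titles, so each was treated as 1 sorted pool, without a replicate. Both CD4 groups carry p2 and both CD8 groups p1, so the sort and whatever that label marks cannot be told apart. The deposited values also did not separate the genotypes at the targeted gene: Il27ra was found in 46.2% (18 of 39) and 42.6% (23 of 54) of the CD4 cells of WT and KO, beside 51.1% (46 of 90) and 54.9% (45 of 82) of the CD8 cells. The table has 1 value per gene and does not show which exons were read, so this neither checks nor contradicts the genotype label, and KO below means cells labelled KO.

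CD4 T cells recognise peptides on MHC class II and steer other immune cells through surface ligands, such as the CD40 ligand, and through cytokines. CD8 T cells recognise peptides on MHC class I and kill the presenting cell with granule proteins, perforin and granzymes. The choice between these fates is made in the thymus, where the transcription factor encoded by Zbtb7b keeps the CD4 fate and Runx3 keeps the CD8 fate.

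The level of a gene is the mean over cells of log2(FPKM + 1), given with the SD over cells. A difference is the CD4 mean minus the CD8 mean within 1 genotype, on that log2 scale, so positive values are higher in CD4 cells. A gene counted as found in a cell at 1 FPKM or more, and as measured in a genotype if it was found in no less than 20% of either sort's cells. Genes with a difference of at least 1 in size were counted. A gene that reached 20% in 1 sort only was measured through the sort where it was more often found. The direction of such genes follows in part from the filter. Intervals of shares are exact Clopper-Pearson 95% intervals and cover counting error only. Where a gene was found in no cell, the share that a count of 0 allows is given instead as 3 counts of the cells in the group. With 1 pool per group there is no test, and SDs over cells describe the cells of 1 pool.

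The cells differed in how many genes they showed, and these numbers stand beside every comparison below. The median number of genes was 1547 in WT CD4, 1747 in KO CD4, 2148 in WT CD8 and 1940 in KO CD8 cells, and the highest was 5520, in a WT CD8 cell. Over all 4687 genes measured in WT the median difference was -0.73, and 4129 of them had the higher mean in CD8 cells. Over the 3709 genes measured in KO the median was -0.20, and 2358 had the higher mean in CD8 cells. Differences were therefore also computed with cells weighted to equal numbers of genes, and, as a choice made after these values were seen, among cells with 1500 to 2500 genes only (19 WT CD4, 40 KO CD4, 58 WT CD8 and 69 KO CD8 cells). In these cells the medians were -0.09 in WT and -0.07 in KO, over the 4104 and 3973 genes that passed the filter within the range. List medians for the range instead keep the members measured in all included cells, so the gene sets differ. The sorts were not matched inside the range: median numbers of genes were 1741 in WT CD4, 1802 in KO CD4, 2040 in WT CD8 and 1950 in KO CD8 cells. Markers of other cell types were found in a minority of cells, which were kept. Cells with at least 2 markers of 1 such type at 10 FPKM or more numbered 3 in WT CD4 (7.69%), 10 in KO CD4 (18.5%), 13 in WT CD8 (14.4%) and 5 in KO CD8 (6.10%). The highest sum of dendritic cell and MHC class II genes was 127586 FPKM, in a WT CD4 cell. The median sum over all genes was 456376 FPKM in that group. 1 KO CD4 cell had at least 2 of the 6 erythroid transcripts in the table at that level, and the highest erythroid sum in this group was 1.14e+06 FPKM. All 6 were at 0 in the other 3 groups. Of the 6 B cell markers, all were at 0 in the WT CD4 cells.

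The co-receptors followed the sort. Cd4, the co-receptor for MHC class II, was found in 87.2% (34 of 39) and 83.3% (45 of 54) of the CD4 cells of WT and KO, beside 0% (0 of 90) and 0% (0 of 82) of the CD8 cells. A count of 0 allows a share of up to 3.33% of WT CD8 and 3.66% of KO CD8 cells. The level of Cd4 was 6.57 ± 3.23 in WT CD4, 6.37 ± 3.35 in KO CD4, 0.01 ± 0.09 in WT CD8 and 0.05 ± 0.19 in KO CD8 cells. Cd8a, the first chain of the co-receptor for MHC class I, was found in 2.56% (1 of 39) and 1.85% (1 of 54) of the CD4 cells of WT and KO, beside 83.3% (75 of 90) and 81.7% (67 of 82) of the CD8 cells. Its level was 0.15 ± 0.78 in WT CD4, 0.13 ± 0.87 in KO CD4, 6.89 ± 3.38 in WT CD8 and 6.23 ± 3.31 in KO CD8 cells. Almost no cell of the other sort had either gene, as the plot of single cells shows. Some cells of each sort were under 1 FPKM for their own gene.

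Cd8b1, the second chain, also had low values in CD4 cells. It was found in 23.1% (9 of 39) and 18.5% (10 of 54) of the CD4 cells of WT and KO, beside 86.7% (78 of 90) and 92.7% (76 of 82) of the CD8 cells. Where found, its median was 2.13 FPKM in WT CD4 and 2.45 FPKM in KO CD4 cells, against 1068 and 918.6 FPKM in the CD8 sorts. At 10 FPKM or more the share in the CD4 sorts was 2.56% in WT and 5.56% in KO. For scale, 1 read of a transcript of 2 kilobases was worth 0.966 to 1.11 FPKM in the median cell. Taken cell by cell, Cd4 without either Cd8 chain was the state of 26 of 39 cells in the WT CD4 sort (66.7%, interval 49.8% to 80.9%) and of 36 of 54 in the KO CD4 sort (66.7%, interval 52.5% to 78.9%). A Cd8 chain without Cd4 was the state of 83 of 90 cells in the WT CD8 sort (92.2%, interval 84.6% to 96.8%) and of 80 of 82 in the KO CD8 sort (97.6%, interval 91.5% to 99.7%). Cd4 together with a Cd8 chain at 10 FPKM or more was found in 2 WT CD4 and 3 KO CD4 cells, and no doublet caller was used.

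The lineage factors were less sharp than the co-receptors. Runx3 was found in 15.4% (6 of 39) and 37% (20 of 54) of the CD4 cells of WT and KO, beside 52.2% (47 of 90) and 56.1% (46 of 82) of the CD8 cells. Its difference was -2.30 in WT and -1.0 in KO, and -1.80 and -1.11 among cells with 1500 to 2500 genes. Zbtb7b, the CD4 factor also known as ThPOK, was found in few cells: 17.9% (7 of 39) and 16.7% (9 of 54) of the CD4 cells of WT and KO, beside 2.22% (2 of 90) and 8.54% (7 of 82) of the CD8 cells. It was below the filter in both genotypes. Gata3, a factor of CD4 development and type 2 helper cells, differed by 0.85 in WT and 0.31 in KO. Tox, which CD4 development needs and exhausted CD8 cells express, differed by -1.30 in WT and -0.53 in KO, was below the filter in KO, and had a WT value of 0.54 among cells with 1500 to 2500 genes.

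**Figure D1:**
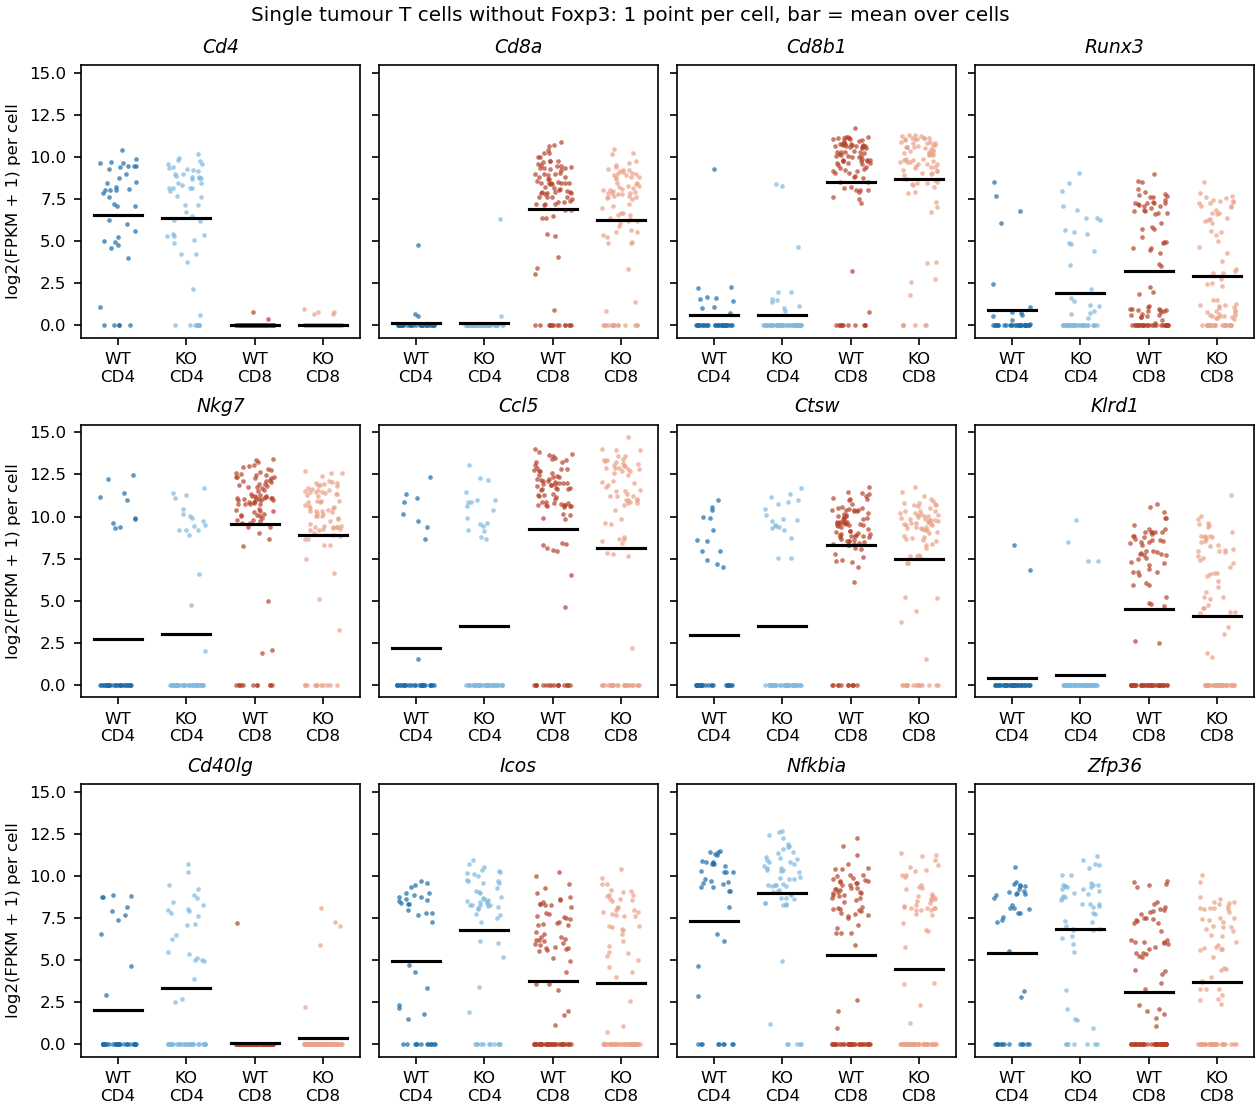
Level of 12 genes in every cell, as log2(FPKM + 1), for the 39 WT CD4, 54 KO CD4, 90 WT CD8 and 82 KO CD8 cells; each point is a cell and each black bar a group mean. Cd4, Cd8a and Cd8b1 reach high values almost only in their own sort, where some cells are under 1 FPKM. Nkg7, Ccl5 and Ctsw form a high and a zero class in both sorts, with more CD8 cells in the high class.

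Without regard to the number of genes per cell, few genes stood higher in CD4 cells and many stood higher in CD8 cells. In WT, 41 of 4687 measured genes (0.875%) were at least 1 higher in CD4 cells and 1649 (35.2%) at least 1 higher in CD8 cells. In KO, 3.96% of the 3709 measured genes were at least 1 higher in CD4 cells and 8.28% at least 1 higher in CD8 cells. Of the 3516 genes measured in both genotypes, 21 (0.597%) were higher in CD4 cells in both, and 5.66% were higher in CD8 cells in both. The genes shared on the CD4 side are 55.3% of such genes in WT and 15.8% in KO, and those shared on the CD8 side are 15.1% in WT and 65.5% in KO. Relative to the median gene of each genotype, the CD4 and CD8 shares were 5.27% and 10.6% in WT, 6.55% and 5.12% in KO and 1.34% and 1.99% in both. Among cells with 1500 to 2500 genes they were 9.11% and 14.7% in WT, 7.68% and 7.53% in KO and 1.87% and 2.92% in both. At equal numbers of genes these shares were 6.4% and 12.4% in WT, 9.30% and 4.48% in KO and 1.76% and 1.76% in both. The CD8 side was thus no longer the larger one in KO or in both. Of the 21 CD4 genes, 17 were also counted in both genotypes under each of these settings. On the CD8 side only 35 genes were, a minority of the 5.66% counted in both, so most genes of that side were not kept. Across the 3516 genes, the differences of the genotypes correlated at Pearson r = 0.32 and Spearman rho = 0.17, and 63.8% had the same sign. These are correlations across genes within 4 pools, and genes are not independent replicates.

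**Figure D2:**
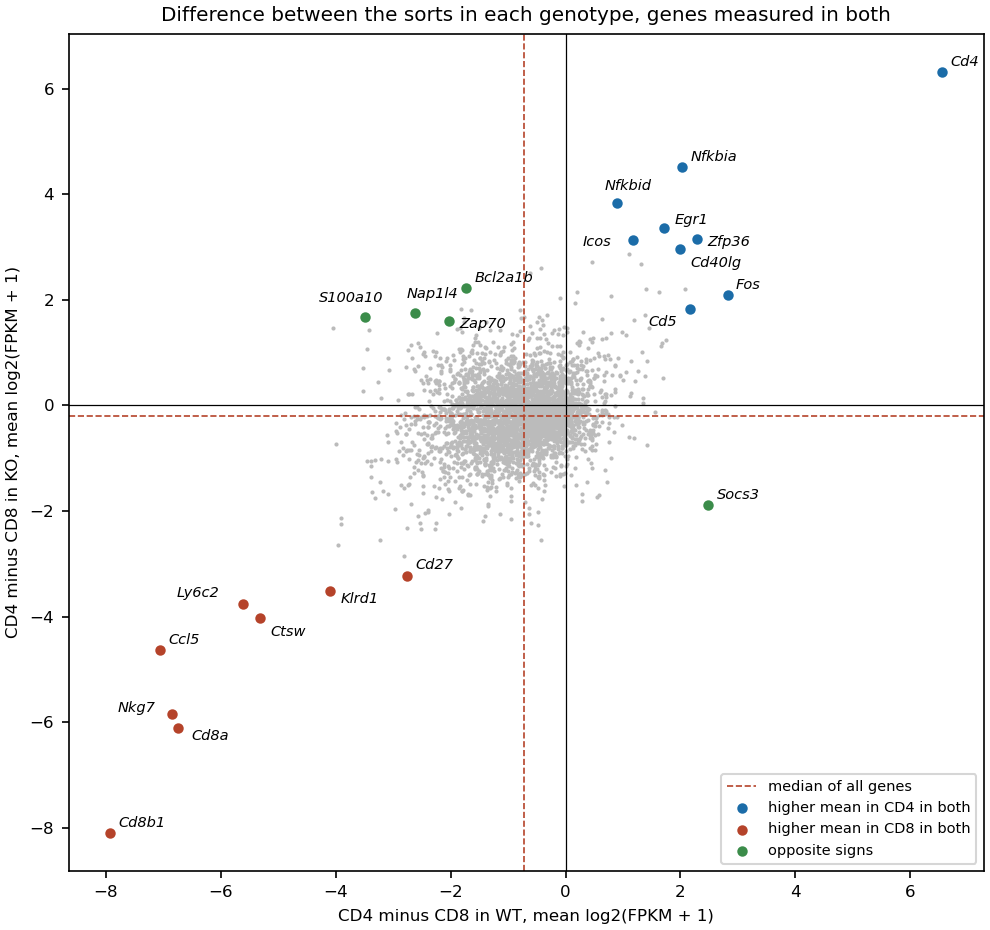
CD4 minus CD8 difference of every gene measured in both genotypes, WT on the x axis and KO on the y axis, in units of mean log2(FPKM + 1); dashed lines mark the median of all measured genes in each genotype (-0.73 and -0.20). The co-receptors and the cytotoxic genes lie far out on the diagonal, the CD4 genes Nfkbia, Zfp36 and Cd40lg lie at its other end, and Socs3 lies alone in the lower right.

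The genes highest in CD8 cells in both genotypes, after the Cd8 chains, include those of cytotoxic and NK cell type proteins. Nkg7, a membrane protein of cytotoxic granules, was found in 25.6% (10 of 39) and 33.3% (18 of 54) of the CD4 cells of WT and KO, beside 87.8% (79 of 90) and 86.6% (71 of 82) of the CD8 cells. Its level was 2.72 ± 4.73 in WT CD4, 3.05 ± 4.56 in KO CD4, 9.58 ± 4.04 in WT CD8 and 8.90 ± 3.84 in KO CD8 cells, and the difference was -6.85 in WT and -5.85 in KO. Ccl5, a chemokine that effector T cells store and secrete, was found in 23.1% (9 of 39) and 33.3% (18 of 54) of the CD4 cells of WT and KO, beside 81.1% (73 of 90) and 70.7% (58 of 82) of the CD8 cells, with a difference of -7.07 in WT and -4.63 in KO. Ctsw, a cathepsin of cytotoxic lymphocytes, was found in 33.3% (13 of 39) and 35.2% (19 of 54) of the CD4 cells of WT and KO, beside 87.8% (79 of 90) and 81.7% (67 of 82) of the CD8 cells, with a difference of -5.32 in WT and -4.02 in KO. The CD8 shares exceeded the CD4 shares by more than the counting intervals for all 3 genes. For Nkg7 the intervals were 13% to 42.1% in WT CD4 and 79.2% to 93.7% in WT CD8, and 21.1% to 47.5% in KO CD4 and 77.3% to 93.1% in KO CD8 cells.

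Where found, Nkg7 had a median of 1474 FPKM in WT CD4 and 2193 FPKM in WT CD8 cells, and 785.9 and 1364 FPKM in the KO sorts. For Ctsw these medians were 389.7, 751.5, 892.0 and 779.4 FPKM in the same order. Among cells with 1500 to 2500 genes the differences stayed at -5.96 and -5.79 for Nkg7, -6.43 and -4.80 for Ccl5 and -5.02 and -3.53 for Ctsw, in WT and KO.

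Of the 24 listed cytotoxic granule proteins and effector chemokines, 14 were measured in WT, and 14 of 14 had the higher mean in CD8 cells, 10 of them by at least 1. In KO 9 of 10 were higher in CD8 cells, 6 by at least 1. Some members reached the 20% filter through the CD8 sort only, so their direction was set in part by the filter. These include Gzmb, Prf1, Cst7, Gzmk, Ccl4 and Ifng in WT, and Gzmb and Cst7 in KO. Nkg7, Ccl5, Ctsw and Fasl were found in at least 20% of both sorts in both genotypes. Of all genes, 88.1% were higher in CD8 cells in WT, 35.2% by at least 1, and 63.6% in KO, 8.28% by at least 1. The list median was -1.72 in WT and -1.25 in KO, beside -0.73 and -0.20 over all genes. Among cells with 1500 to 2500 genes it was -0.98 and -1.34 over the same members. The genes that passed the filter in that range had medians of -0.09 and -0.07. Gzmb, the granzyme of activated killer cells, was found in 5.13% and 9.26% of the CD4 cells of WT and KO, beside 37.8% and 22% of the CD8 cells. Its difference was -3.22 in WT and -1.44 in KO, and it depended on the Foxp3 rule: with the Foxp3-positive cells included it was 0.10 in WT and 1.23 in KO, higher in the CD4 sort. In the 1500 to 2500 gene range it was -0.989 in WT and -1.33 in KO. Perforin, the pore-forming protein encoded by Prf1, was found in 42 of 90 WT CD8 and 10 of 82 KO CD8 cells, in 3 of 39 WT CD4 cells and in 0 of 54 KO CD4 cells. The last count allows a share of up to 5.56%. Prf1 was below the filter in KO, and its WT difference of -3.41 was -1.45 in the 1500 to 2500 gene range. Cst7, an inhibitor of cathepsins in granules, was found in 7.69% and 1.85% of the CD4 cells of WT and KO, beside 52.2% and 29.3% of the CD8 cells, and Fasl, the ligand of the death receptor Fas, in 20.5% and 25.9% of the CD4 cells of WT and KO, beside 34.4% and 35.4% of the CD8 cells. The WT difference of Fasl, -1.07, was 0.22 at equal numbers of genes. Srgn, the proteoglycan that packs granules, was the listed gene with opposite signs, at -0.45 in WT and 0.62 in KO, and lay on the CD4 side in both at 1500 to 2500 genes, at 1.27 and 0.86. Gzmk was found in 2.56% and 7.41% of the CD4 cells of WT and KO, beside 25.6% and 17.1% of the CD8 cells, and the chemokine Ccl4 in 2.56% and 3.70% of the CD4 cells of WT and KO, beside 21.1% and 15.9% of the CD8 cells. Ifng, the cytokine interferon gamma, was found in 7.69% and 9.26% of the CD4 cells of WT and KO, beside 23.3% and 11% of the CD8 cells, and its WT difference of -0.94 was 0.26 in that range.

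Receptors that T cells share with NK cells also lay on the CD8 side. All 8 measured in WT and all 7 measured in KO had the higher mean in CD8 cells, as did 88.1% and 63.6% of all genes. Klrc1, Klrc2 and Klrd1 in both genotypes, and Klrk1 in WT, reached the 20% filter through the CD8 sort only. The shared direction was thus set in part by the filter. Without a filter on low values the list medians minus those of all genes were -0.18 in WT and -0.21 in KO, against -1.28 and -0.95 with it. The list medians were -2.0 and -1.15, beside -0.73 and -0.20 over all genes, and -1.26 and -1.28 among cells with 1500 to 2500 genes. In that range Hcst lay on the CD4 side in both genotypes, at 0.37 and 0.22, and Cd96 in WT, at 1.10. Klrd1, the CD94 chain that pairs with NKG2 receptors, was found in 5.13% (2 of 39) and 7.41% (4 of 54) of the CD4 cells of WT and KO, beside 57.8% (52 of 90) and 58.5% (48 of 82) of the CD8 cells, with a difference of -4.10 in WT and -3.51 in KO. Its inhibitory partner Klrc1 was found in 5.13% and 3.70% of the CD4 cells of WT and KO, beside 48.9% and 29.3% of the CD8 cells, and the activating receptor Klrk1 in 10.3% and 20.4% of the CD4 cells of WT and KO, beside 54.4% and 32.9% of the CD8 cells. Klrc2, another NKG2 chain, was under 1 FPKM in all 39 WT CD4 cells, which allows a share of up to 7.69%, and was found in 39 of 90 WT CD8 cells. The 7 markers of NK cells proper had a median sum of 0 FPKM in all 4 groups, with highest sums of 6732 FPKM in WT CD4, 5513 in KO CD4, 616.8 in WT CD8 and 416.8 in KO CD8. At least 2 of them at 10 FPKM or more were found in 1, 3, 3 and 0 cells of these groups. Leaving out every cell with at least 2 markers of any 1 other type turned no sign of a named gene that was at least 1 in size and moved no list median by over 0.5.

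Further genes among the 15 highest in CD8 cells have other roles. Ly6c2, a surface protein of memory-type CD8 cells, differed by -5.62 in WT and -3.75 in KO and was found in 15.4% and 25.9% of the CD4 cells of WT and KO, beside 63.3% and 57.3% of the CD8 cells. Cd27, a co-stimulatory receptor of the TNF receptor family, differed by -2.77 in WT and -3.23 in KO and was found in 28.2% and 20.4% of the CD4 cells of WT and KO, beside 62.2% and 58.5% of the CD8 cells. Epsti1, an interferon-inducible gene, differed by -2.81 in WT and -2.85 in KO. Tubb5, a beta-tubulin, differed by -2.27 in WT and -2.35 in KO, Ctsd, a lysosomal protease, by -2.76 in WT and -2.32 in KO, Hn1 by -3.23 in WT and -2.55 in KO and Tbc1d10c, an inhibitor of Ras and calcineurin signalling, by -2.53 in WT and -2.35 in KO. Of these, Ctsd and Hn1 were below 1 in size in WT at equal numbers of genes, at -0.45 and -0.57.

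Promoter sequence was available for some of the genes that were far apart between the sorts, and 3 are shown because they include 1 cytotoxic gene with a RUNX motif and a gene from each side without one. The RefSeq table (GRCm38.p6, the mm10 assembly) covers 10 of the 15 genes highest in CD8 cells and 9 of the 15 highest in CD4 cells. The core RUNX motif TGTGGT, searched on both strands, was in the windows of 5 of those 10 genes, Nkg7 among them, and of 1 of the 9 (Tnfrsf25), and in 16.8% of all 32851 windows of the table, which run from 250 bases before to 50 after the start. The T-box motif GGTGTGA was in 1 of 10 and 0 of 9, against 3.98% of all windows, the GATA motif AGATAA in 1 and 0, against 11.2%, and the TCF motif CTTTGA in 1 and 1, against 16%. A gene was counted when any of its windows held the motif, while the shares of all windows are of single windows. Ly6c2 and Tnfrsf25, both counted for RUNX, have 2 windows each. A match describes these letters and does not show binding, and no match says only that the letters are not in the window. The sequences below are the bases before the first annotated transcribed base, 5′ to 3′ on the gene's strand, and capitals mark the RUNX motif, which lies on the opposite strand and begins 83 bases before the RefSeq start of Nkg7. Nkg7 is chr7:43436888-43437072, + strand, Cd8a is chr6:71373177-71373426, + strand, and Fos is chr12:85473640-85473889, + strand.
Nkg7: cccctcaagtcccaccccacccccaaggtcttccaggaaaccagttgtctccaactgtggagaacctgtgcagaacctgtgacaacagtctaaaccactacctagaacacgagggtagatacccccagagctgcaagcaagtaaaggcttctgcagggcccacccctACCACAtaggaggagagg
Cd8a: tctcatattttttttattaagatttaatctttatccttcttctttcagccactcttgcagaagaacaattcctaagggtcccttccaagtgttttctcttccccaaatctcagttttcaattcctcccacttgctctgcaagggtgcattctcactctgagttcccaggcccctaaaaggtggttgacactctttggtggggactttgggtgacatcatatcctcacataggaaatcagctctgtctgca
Fos: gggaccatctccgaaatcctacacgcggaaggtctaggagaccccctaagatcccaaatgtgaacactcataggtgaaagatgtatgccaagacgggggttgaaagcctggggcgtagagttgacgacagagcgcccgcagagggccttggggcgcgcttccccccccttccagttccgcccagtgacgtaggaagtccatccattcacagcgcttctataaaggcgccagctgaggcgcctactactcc

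On the CD4 side, the genes highest in both genotypes after Cd4 include several of activation responses. Zfp36, which encodes an RNA-binding protein that shortens the life of cytokine mRNAs, was found in 66.7% (26 of 39) and 85.2% (46 of 54) of the CD4 cells of WT and KO, beside 51.1% (46 of 90) and 58.5% (48 of 82) of the CD8 cells. Its level was 5.42 ± 4.15 in WT CD4, 6.84 ± 3.54 in KO CD4, 3.14 ± 3.50 in WT CD8 and 3.69 ± 3.50 in KO CD8 cells, and the difference was 2.29 in WT and 3.15 in KO. Nfkbia, the inhibitor of NF-kB that NF-kB itself induces, was found in 76.9% (30 of 39) and 90.7% (49 of 54) of the CD4 cells of WT and KO, beside 61.1% (55 of 90) and 53.7% (44 of 82) of the CD8 cells, with a difference of 2.03 in WT and 4.51 in KO. Fos, a subunit of AP-1, was found in 64.1% (25 of 39) and 63% (34 of 54) of the CD4 cells of WT and KO, beside 43.3% (39 of 90) and 47.6% (39 of 82) of the CD8 cells, with a difference of 2.82 in WT and 2.09 in KO. These genes were common in both sorts, so the sorts overlapped. Where found, Zfp36 had a median of 444.8 FPKM in WT CD4 against 69.9 FPKM in WT CD8 cells, and 398.9 against 109.6 FPKM in KO.

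Of the 25 immediate early and heat shock genes, 18 were measured in each genotype. 13 of 18 had the higher mean in CD4 cells in WT, 8 by at least 1, and 13 of 18 in KO, 7 by at least 1. Of all genes, 11.9% had the higher mean in CD4 cells in WT, 0.875% by at least 1, and 36.4% in KO, 3.96% by at least 1. The list median was 0.78 in WT and 0.75 in KO. It stood 1.51 and 0.94 above the median of all genes. Egr1 differed by 1.72 in WT and 3.35 in KO, Nfkbid, another inhibitor of the NF-kB family, by 0.89 in WT and 3.84 in KO, and Junb, an AP-1 subunit present in nearly every cell, by 1.66 in WT and 1.12 in KO. Outside the list, Nfkbiz differed by 1.41 in WT and 2.21 in KO, Nr4a1, a nuclear receptor induced by the T cell receptor, by 1.31 in WT and 2.68 in KO, Crem, a transcription factor of cAMP signalling, by 1.38 in WT and 1.72 in KO, and Hif1a, the factor of the oxygen response, by 1.63 in WT and 2.14 in KO. Among cells with 1500 to 2500 genes Egr1 was at 2.01 and 3.96, Nfkbid at 1.01 and 4.62 and Nr4a1 at 3.15 and 2.99. At equal numbers of genes Egr1, Nfkbiz and Crem were below 1 in WT, at 0.97, 0.83 and 0.76. The sorts also carry different p numbers, so the difference cannot be told apart from what that label marks.

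Cd40lg, the ligand with which CD4 cells license dendritic and B cells, was rare in CD8 cells. It was found in 28.2% (11 of 39) and 48.1% (26 of 54) of the CD4 cells of WT and KO, beside 1.11% (1 of 90) and 6.10% (5 of 82) of the CD8 cells. The counting intervals were 15% to 44.9% in WT CD4 and 0.0281% to 6.04% in WT CD8, and 34.3% to 62.2% in KO CD4 and 2.01% to 13.7% in KO CD8 cells. The difference was 1.98 in WT and 2.97 in KO. Few other genes of the helper list reached the filter. Of 22, 2 were measured in WT and 4 in KO, each with the higher mean in CD4 cells. Cd40lg in both genotypes, and Rora, Maf and Folr4 in KO, reached the 20% filter through the CD4 sort only. Their direction was thus set in part by the filter and is a description only. Of all genes, 11.9% in WT and 36.4% in KO had the higher mean in CD4 cells. Rora, a factor of helper and innate lymphoid cells, differed by 0.46 in WT and 2.71 in KO. Maf, a factor of IL-10 and IL-21 producing cells, was found in 15.4% and 24.1% of the CD4 cells of WT and KO, beside 2.22% and 2.44% of the CD8 cells, and Folr4, the folate receptor of follicular helper and regulatory cells, in 15.4% and 24.1% of the CD4 cells of WT and KO, beside 4.44% and 8.54% of the CD8 cells. Transcripts of helper cytokines were found in few cells. Il2 was found in 0 of 39 WT CD4 and 4 of 54 KO CD4 cells, Il4 in 1 cell of each, Il17a in 0 of 39 and 1 of 54, Il21 in 1 of 39 and 0 of 54, and Il10 in 1 cell of each. At 39 and 54 cells, a gene found in no cell could still be present in up to 7.69% and 5.56% of cells by counting alone. Tnf was found in 0 of 39 WT CD4 and 10 of 54 KO CD4 cells, and in 6 of 90 WT CD8 and 3 of 82 KO CD8 cells.

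Of 15 co-stimulatory receptors measured in WT, 3 were at least 1 higher in CD4 and 5 at least 1 higher in CD8 cells, and of 12 in KO, 5 and 3, beside 0.875% and 35.2% of all genes in WT and 3.96% and 8.28% in KO. The medians were -0.08 and 0.60, and 0.89 and 1.36 in the 1500 to 2500 gene range. Icos, which binds its ligand on antigen-presenting cells, was found in 69.2% (27 of 39) and 79.6% (43 of 54) of the CD4 cells of WT and KO, beside 56.7% (51 of 90) and 50% (41 of 82) of the CD8 cells, with a difference of 1.17 in WT and 3.13 in KO. Tnfrsf4, the receptor OX40, differed by 1.10 in WT and 2.86 in KO and was found in 23.1% and 38.9% of the CD4 cells of WT and KO, beside 11.1% and 6.10% of the CD8 cells. Tnfrsf25, the death receptor 3, differed by 1.74 in WT and 1.24 in KO, and Slamf1, a receptor for itself on other lymphocytes, by 0.79 in WT and 2.08 in KO. Tnfrsf18, the receptor GITR, was at -0.62 in WT and 2.50 in KO, and its WT value was 0.54 at equal numbers of genes and 1.70 in the 1500 to 2500 gene range. Cd27, given above, lay on the CD8 side in both genotypes.

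**Figure D3:**
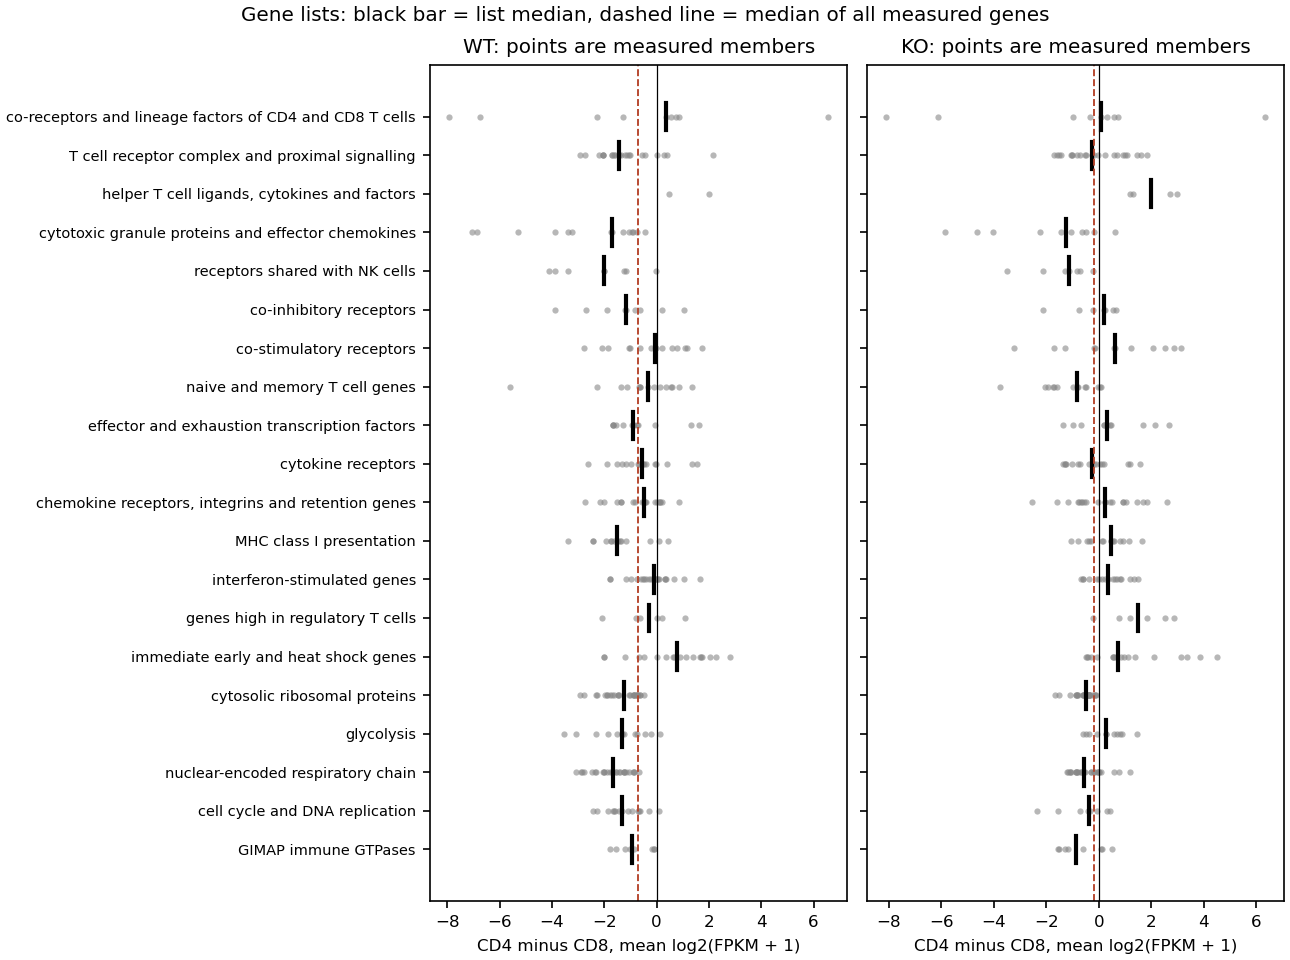
CD4 minus CD8 difference of each measured member of the 20 gene lists, in mean log2(FPKM + 1), for WT (left) and KO (right); black bars are list medians (lists with at least 3 measured members) and the dashed line is the median of all measured genes. Cytotoxic and NK-type lists lie left of the dashed line and the immediate early list right of it in both genotypes.

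All 23 members of the receptor and proximal signalling list were measured: 17 were at least 1 higher in CD8 and 1 at least 1 higher in CD4 cells in WT, and 7 and 5 in KO. Over all genes, 35.2% and 0.875% were so in WT and 8.28% and 3.96% in KO. The list median was -1.42 and -0.26, beside -0.73 and -0.20. Lck, the kinase bound by both co-receptors, was found in 71.8% and 83.3% of the CD4 cells of WT and KO, beside 96.7% and 95.1% of the CD8 cells, with a difference of -2.74 in WT and -1.51 in KO. Cd3d, a signalling chain of the receptor, differed by -1.69 in WT and -1.69 in KO, Thy1 by -2.05 in WT and -1.57 in KO, the inhibitory kinase Csk by -2.05 in WT and -1.44 in KO and the phosphatase Ptpn6 by -2.94 in WT and -1.08 in KO. Cd5, a receptor that dampens T cell receptor signals, was the only member at least 1 higher in CD4 cells in both genotypes. It was found in 66.7% (26 of 39) and 55.6% (30 of 54) of the CD4 cells of WT and KO, beside 43.3% (39 of 90) and 34.1% (28 of 82) of the CD8 cells, with a difference of 2.16 in WT and 1.82 in KO. Among cells with 1500 to 2500 genes Cd3d was at -0.75 and -1.03, Lck at -2.12 and -0.84 and Cd5 at 3.63 and 1.36, and the list median was -0.45 and 0.0049.

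Of the 16 co-inhibitory receptors, 9 were measured in WT, of which 5 were at least 1 higher in CD8 and 1 at least 1 higher in CD4 cells, against 1 and 0 of 7 in KO. Over all genes these shares were 35.2% and 0.875% in WT and 8.28% and 3.96% in KO. Lag3, a receptor for MHC class II, was found in 2.56% (1 of 39) and 5.56% (3 of 54) of the CD4 cells of WT and KO, beside 32.2% (29 of 90) and 18.3% (15 of 82) of the CD8 cells. Havcr2, the receptor TIM-3, was found in 5.13% (2 of 39) and 5.56% (3 of 54) of the CD4 cells of WT and KO, beside 27.8% (25 of 90) and 7.32% (6 of 82) of the CD8 cells. Both were below the filter in KO. Their WT differences, -2.71 and -1.91, were -1.16 and -0.46 in the 1500 to 2500 gene range. Cd160 was found in 2.56% and 1.85% of the CD4 cells of WT and KO, beside 21.1% and 7.32% of the CD8 cells. Pdcd1, the receptor PD-1, differed by -0.63 in WT and 0.24 in KO, Tigit by -0.83 in WT and -0.76 in KO and Ctla4 by 0.21 in WT and -0.21 in KO, all under 1 in size. In the 1500 to 2500 gene range Pdcd1 lay on the CD4 side in both, at 1.48 and 0.10, and Tigit had a WT value of 0.69, while at equal numbers of genes their WT values were 0.25 and -1.28. Btla, which binds a TNF receptor family member, was on the CD4 side, at 1.06 in WT and 0.64 in KO. The list median of WT, -1.16, was -0.23 among cells with 1500 to 2500 genes over the same 9 members. With members filtered anew in that range, it stood 0.78 above the median of all genes. Effector transcription factors gave Tbx21, the factor T-bet, at -1.57 in WT and -1.0 in KO, and Eomes, its relative, in 0 of 39 WT CD4, 1 of 54 KO CD4, 16 of 90 WT CD8 and 10 of 82 KO CD8 cells. Batf differed by -0.86 in WT and -1.37 in KO, with a WT value of 0.75 in the 1500 to 2500 gene range, and Nr4a2 by -1.67 in WT and -0.69 in KO.

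Of the 15 naive and memory genes measured in WT 4 were at least 1 higher in CD8 cells and 1 at least 1 higher in CD4 cells, and in KO 6 and 0 of 15. The shares of all genes higher in CD8 by at least 1 were 35.2% and 8.28%, and the list medians were -0.32 and -0.84. Ccr7, the receptor that guides naive cells to lymph nodes, differed by -0.64 in WT and -1.95 in KO, and its WT value was 0.27 at equal numbers of genes and 0.50 in the 1500 to 2500 gene range. Tcf7, a factor of naive and stem-like cells, had opposite signs, at 0.55 in WT and -1.74 in KO, as did Slamf6, at 0.58 in WT and -1.69 in KO. Il7r, the IL-7 receptor, differed by 1.34 in WT and 0.04 in KO, with a WT value of 0.21 at equal numbers of genes. Among cytokine receptors, Il2rb, the shared beta chain for IL-2 and IL-15, differed by -2.64 in WT and -1.28 in KO, Il21r by -1.32 in WT and -1.36 in KO and Il10rb by -1.89 in WT and -1.24 in KO. Of migration genes, Selplg, a ligand of selectins, differed by -2.18 in WT and -1.18 in KO. Cxcr3, a receptor for interferon-induced chemokines, differed by 0.01 in WT and 0.42 in KO. Cxcr6, a receptor of tissue-resident cells, had opposite signs, at -2.75 in WT and 1.04 in KO, but its WT value was 0.25 among cells with 1500 to 2500 genes. The 8 GIMAP genes, lymphocyte GTPases, had medians of -0.95 and -0.88, beside -0.73 and -0.20 over all genes. In KO 3 of the 8 had the higher mean in CD4 cells, as did 36.4% of all genes. In the 1500 to 2500 gene range the medians were -0.21 and -1.09, and with log2 of the mean FPKM plus 1 they stood at 0.43 in WT and -0.052 in KO relative to the median of all genes. Gimap5 differed by -1.21 in WT and -1.55 in KO, with a WT value of -0.62 in that range.

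Of the housekeeping lists, all 26 ribosomal protein genes had the higher mean in CD8 cells in both genotypes, as did 88.1% of all genes in WT and 63.6% in KO. Their medians were -1.24 and -0.50. The medians were -0.80 and -0.38 among cells with 1500 to 2500 genes, below the medians of the genes that passed the filter there. Rpl10a differed by -2.34 in WT and -1.11 in KO. The 27 respiratory chain genes had a median of -1.65 in WT, which was -0.78 in the 1500 to 2500 gene range and 0.20 at equal numbers of genes. The KO median was -0.55. Glycolysis had medians of -1.33 and 0.28, but 0.28 and 0.91 in the 1500 to 2500 gene range. In WT, Gapdh was at -1.34 and, in that range, 0.89, and Eno1 at -2.31 and, in that range, -0.10. MHC class I presentation had medians of -1.5 and 0.46, and -0.24 and 0.44 in that range. H2-K1, a class I heavy chain found in nearly every cell, differed by 0.42 in WT and 0.48 in KO. Cell cycle genes had medians of -1.31 and -0.37, and -0.32 and -0.38 in the 1500 to 2500 gene range. Of interferon-stimulated genes, Igtp and Ifi27l2a were on the CD4 side in both genotypes, at 1.68 in WT and 1.19 in KO, and 1.06 in WT and 1.33 in KO, and the list median was -0.10 and 0.36.

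Cytotoxic genes were also counted within cells. The median number of the 24 cytotoxic genes found per cell was 2 in WT CD4 (0 to 10), 3 in KO CD4 (0 to 10), 7 in WT CD8 (1 to 20) and 6 in KO CD8 cells (0 to 14). At least 3 were the rule in CD8 cells: 85 of 90 in WT (94.4%, interval 87.5% to 98.2%) and 73 of 82 in KO (89%, interval 80.2% to 94.9%) had them. In the CD4 sorts 18 of 39 cells in WT (46.2%, interval 30.1% to 62.8%) and 32 of 54 in KO (59.3%, interval 45% to 72.4%) did. Among cells with 1500 to 2500 genes the medians were 3 and 3 in the CD4 sorts and 6 and 6 in the CD8 sorts. NK-type receptors had medians of 1, 1, 4 and 3 per cell in WT CD4, KO CD4, WT CD8 and KO CD8. Over the 22 helper genes the medians were 1, 2, 1 and 1. In the CD4 sorts 6 cells of WT (15.4%) and 20 of KO (37%) had at least 3 helper genes, beside 4 (4.44%) and 6 (7.32%) in the CD8 sorts.

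**Figure D4:**
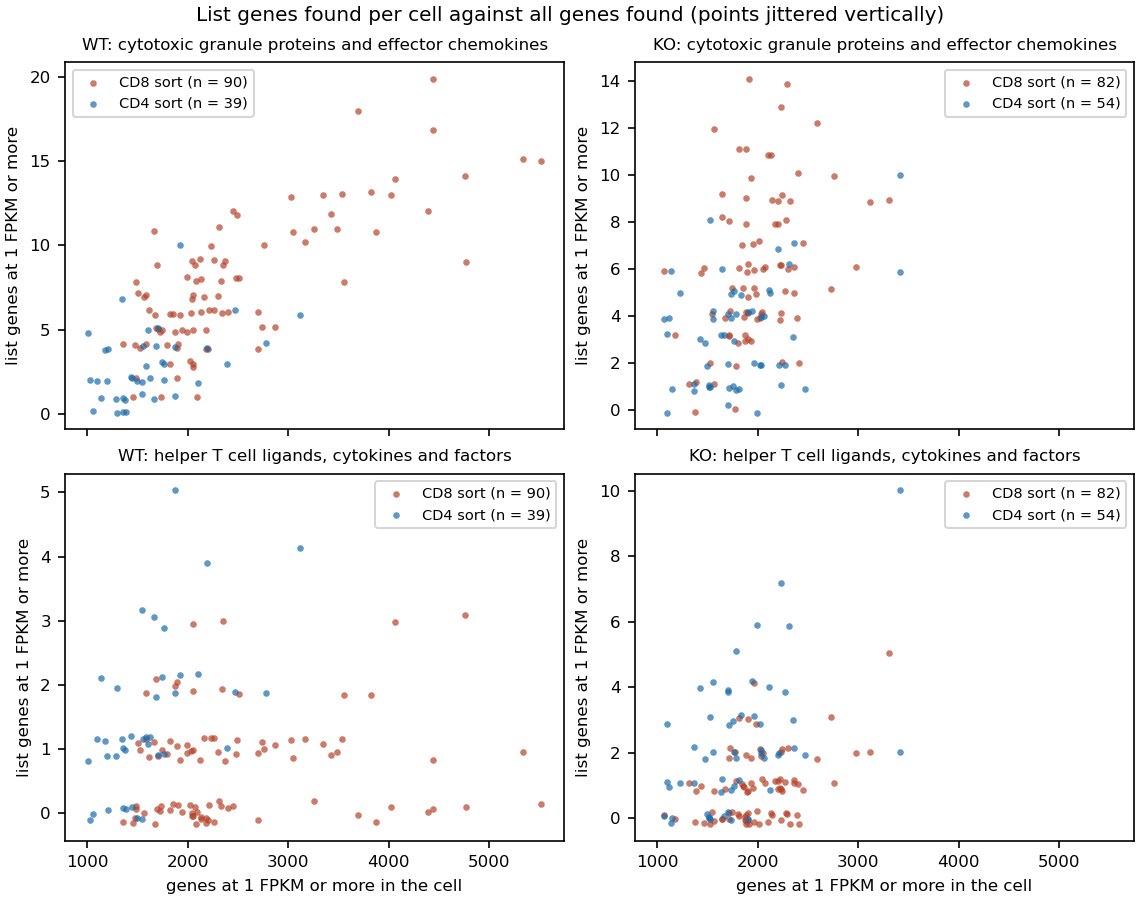
Number of cytotoxic (top) and helper (bottom) list genes at 1 FPKM or more in each cell, against the number of all genes at 1 FPKM or more, for WT (left) and KO (right); each point is a cell, moved slightly up or down. Cytotoxic counts climb with the number of genes, and at 1500 to 2500 genes CD8 cells still have a median of 6 against 3 in CD4 cells. Within that range the CD4 cells have fewer genes, with medians of 1741 against 2040 in WT and 1802 against 1950 in KO.

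A fraction of CD4 cells had some of the cytotoxic genes. Of the 10 CD4 cells of WT and 18 of KO with Nkg7, 8 and 15 had Cd4, and 0 and 0 had Cd8a, while 5 and 2 had Cd8b1. Of the 10 WT cells with Nkg7, 6 had Ccl5, 6 had Ctsw, 5 had Cd40lg and 2 had Tbx21. In the 18 KO cells with Nkg7, 9 had Ccl5, 14 had Ctsw, 12 had Cd40lg and 8 had Tbx21. Among the 29 WT cells without Nkg7, 3 had Ccl5, 7 had Ctsw, 6 had Cd40lg and 6 had Tbx21. Among the 36 KO cells without Nkg7, 9 had Ccl5, 5 had Ctsw, 14 had Cd40lg and 2 had Tbx21. Nkg7 and Cd40lg were thus found together in 5 WT and 12 KO cells. Fewer of the cells with Nkg7 had Prf1 (2 in WT and 0 in KO), Cst7 (3 and 0) or Klrd1 (1 and 2). In the cells without Nkg7, Prf1 was found in 1 and 0, Cst7 in 0 and 1 and Klrd1 in 1 and 2. Cd8b1 was found in 4 of the 29 WT and 8 of the 36 KO cells without Nkg7. Median numbers of genes were 1695 and 1495 in WT CD4 cells with and without Nkg7, and 1734 and 1759 in KO.

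The Foxp3-positive cells left out of the CD4 sort differ from the conventional ones in several of the genes above, and these shares are a description, since Foxp3 chose the cells. Cd40lg was found in 3 of 46 Foxp3-positive cells in WT (6.52%) and 4 of 35 in KO (11.4%), beside 28.2% and 48.1% of conventional CD4 cells. Tnfrsf9, a co-stimulatory receptor, stood at 1 FPKM or more in 80.4% and 82.9% of Foxp3-positive cells, beside 10.3% and 16.7%. Ikzf2, a factor of regulatory cells, was present in 82.6% and 74.3%, beside 10.3% and 7.41%. The shares of Foxp3-positive cells with Nkg7 were 54.3% in WT and 28.6% in KO, beside 25.6% and 33.3% of conventional CD4 cells. Ikzf2 and Tnfrsf9, which the rule did not use, were thus uncommon in the conventional cells, while Ctla4 was found in 46.2% and 40.7% of them. Leaving out the 5 WT and 9 KO CD4 cells with Ikzf2 or Il2ra turned the sign of no named gene that was at least 1 in size.

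Some genes had opposite signs in the genotypes. Of the 3516 genes measured in both, 48 were at least 1 in size with opposite signs: 47 were higher in CD8 cells in WT and in CD4 cells in KO, and 1, Socs3, the reverse. Socs3, a feedback inhibitor of cytokine receptors that signal through gp130 and STAT3, was found in 82.1% (32 of 39) and 35.2% (19 of 54) of the CD4 cells of WT and KO, beside 60% (54 of 90) and 54.9% (45 of 82) of the CD8 cells. Its level was 7.09 ± 3.54 in WT CD4, 2.57 ± 3.71 in KO CD4, 4.61 ± 3.91 in WT CD8 and 4.46 ± 4.21 in KO CD8 cells, and the difference was 2.48 in WT and -1.89 in KO. WT CD4 cells were the highest and KO CD4 cells the lowest of the 4 groups, and the CD8 groups lay between them. The values among cells with 1500 to 2500 genes were 2.83 and -2.08. S100a10, a partner of annexin A2, was found in 28.2% (11 of 39) and 72.2% (39 of 54) of the CD4 cells of WT and KO, beside 70% (63 of 90) and 57.3% (47 of 82) of the CD8 cells, with a difference of -3.49 in WT and 1.68 in KO. Zap70, the kinase of the T cell receptor, was found in 33.3% and 70.4% of the CD4 cells of WT and KO, beside 62.2% and 58.5% of the CD8 cells, with a difference of -2.04 in WT and 1.59 in KO. Sla, an adaptor that limits T cell receptor signals, differed by -1.82 in WT and 1.83 in KO, Nap1l4, a histone chaperone, by -2.62 in WT and 1.75 in KO, Bcl2a1b, a survival factor, by -1.73 in WT and 2.23 in KO, Pdia3, a chaperone of the endoplasmic reticulum, by -1.76 in WT and 1.65 in KO and Gdi2, a regulator of Rab proteins, by -1.64 in WT and 1.80 in KO. Bcl2a1b belongs to a family of near-identical copies, so its reads may be shared among them. In the 1500 to 2500 gene range the WT values were -1.59 for S100a10, -0.45 for Zap70 and -0.54 for Bcl2a1b. All 8 kept opposite signs relative to the median gene and among cells with 1500 to 2500 genes. At equal numbers of genes 7 did, and Pdia3 was at 0.15 and 2.48. The WT CD4 pool, which also had the lowest median number of genes, was the lowest group for 5 of the 7 genes other than Socs3, and the KO CD8 pool was lowest for Pdia3 and Gdi2. Genotype and pool cannot be told apart.

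**Figure D5:**
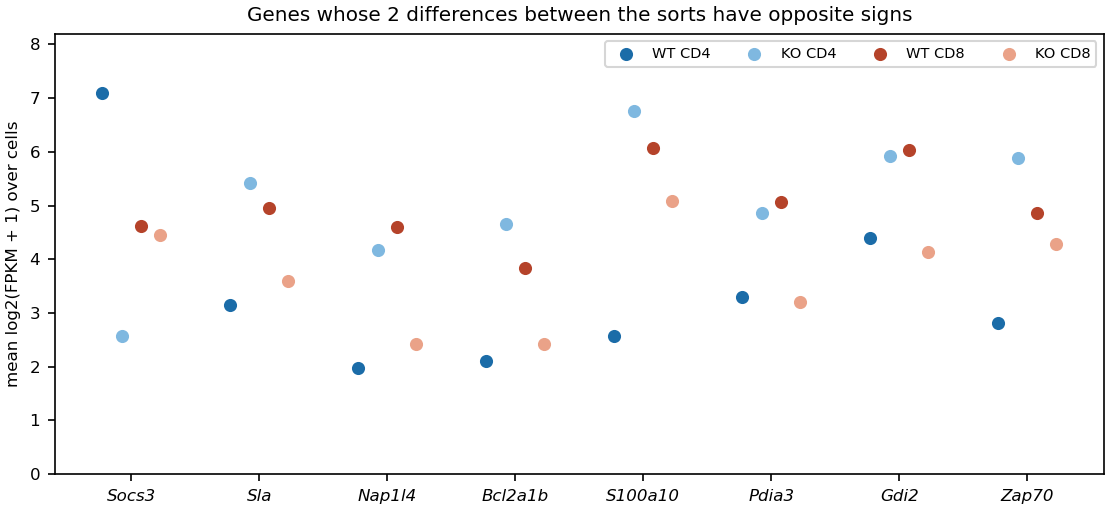
Mean log2(FPKM + 1) over cells of the 8 genes with the largest differences of opposite sign, for the 39 WT CD4, 54 KO CD4, 90 WT CD8 and 82 KO CD8 cells; each point is 1 pool, with no error bar because there is no replicate. Socs3 runs from 7.09 in WT CD4 to 2.57 in KO CD4, and in the other genes KO CD4 stands above WT CD4.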

How the data were processed

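The 4 groups are the CD4 and CD8 sorts of WT and IL27raKO mice, taken from the sample titles and genotype labels. The authors deposited gene-level FPKM, normalised between cells by TMM as the deposited file's name states; the submitters' processing notes name Bowtie, RSEM and the mm10 build, with versions not given in the sources used here. The table held 23366 rows and 375 columns. The 371 single-cell columns were used, 4 other columns were not, and 4 rows with a repeated symbol were left out, which left 23362 genes. FPKM are not counts, so no count model was used. Read depth was taken from the low values: over 3808 genes with 1 annotated transcript, 1 fragment at 1 kilobase was worth a median of 1.93 to 2.22 FPKM, which is 450625 to 517632 fragments per cell after TMM. At that depth a gene under 1 FPKM in a cell may still be expressed.

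Levels, differences, filters and intervals were computed as given in the report, with Python 3.11.15, pandas 2.3.3, numpy 2.4.6 and scipy 1.17.1. The calculation of the difference was checked with known shifts put into resampled KO CD8 cells. Upward shifts return there by construction, and both sides were drawn from the same cells. The check therefore covers the arithmetic only, and not the effect of unequal numbers of genes. Equal numbers of genes means that CD4 and CD8 cells were weighted to the same share in each of 4 ranges of gene number within a genotype. The range with the fewest CD4 cells holds 3 CD4 cells in WT and 10 in KO. No test was made, since each group is 1 pool. Nothing in the labels says whether a pool held cells of 1 or several mice. The rule for the cells, the 20 gene lists, the 9 lists of markers of other cell types and the rule for named genes were chosen with earlier results of these data known. Named genes were the co-receptors, Foxp3 and 4 lineage factors, in each list up to 6 members with the largest difference of the same sign in both genotypes and up to 2 of opposite sign, the 15 genes highest in each sort by the smaller difference, and the 8 largest of opposite sign. Receptor segments, immunoglobulin genes, predicted genes, pseudogenes and sex-linked genes were left out of these ranks. List members outside this rule (such as Prf1, Gzmk, Lag3, Havcr2, Ifng, Tnf, Il7r, Ctla4, Cxcr3 and the helper cytokines) were named after their values were seen. 4 list members were matched by an older symbol. Some genes that the rule names are not reported here. The alternatives are given in the closing section.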

Additional observations from a re-analysis of the deposited data

Results flagged for a closer look

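Each of the 8 genes below is listed because its CD4 minus CD8 difference is at least 1 in size in both genotypes with opposite signs. The number given is the KO difference minus the WT difference on the log2(FPKM + 1) scale. It was not tested, since each group is 1 pool. For Socs3, an inhibitor of cytokine signalling, it was -4.37, with the WT CD4 pool highest and the KO CD4 pool lowest. It was 5.18 for S100a10 and 4.37 for Nap1l4. Bcl2a1b gave 3.96 and Sla 3.66. Zap70 gave 3.63, Gdi2 3.44 and Pdia3 3.41. In these 7 genes the WT CD4 pool, which had the lowest median number of genes, stood below the KO CD4 pool. All 8 kept opposite signs among cells with 1500 to 2500 genes, where the WT values of Zap70 and Bcl2a1b were -0.45 and -0.54. At equal numbers of genes 7 did, and Pdia3 was at 0.15 in WT. There the WT values of Bcl2a1b, Gdi2 and Nap1l4 were -0.09, -0.32 and -0.54. Socs3, S100a10, Sla and Zap70 stayed at least 1 in size in both genotypes at equal numbers of genes.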

How the results depend on the processing

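No replicate exists, so leaving out a replicate was not possible, and no paired analysis was possible because each group is 1 pool and no test was made. All alternatives were set with earlier results known, and the range of 1500 to 2500 genes was chosen after seeing the data. Of the differences of named genes at least 1 in size, 85.4% kept their sign under all 15 alternatives and 31.8% also stayed at least 1 in size. Leaving out the filter on cells, setting Foxp3 to exactly 0, leaving out cells with other markers, and leaving out CD4 cells with Ikzf2 or Il2ra turned no sign of these, and moved no count by over 1.5 times and no list median by over 0.5. The values that moved further are given by setting, as percents of measured genes where the number of genes moved by over 1.5 times (0.875% and 35.2% in WT, 3.96% and 8.28% in KO, 0.597% and 5.66% in both, for CD4 and CD8), list medians minus the median of all genes, and differences of genes whose sign turned. Changes with the pseudocount follow from its size, and the cause of the others was not tested. Settings that change the cells filtered genes and list members anew. Their list medians for 1500 to 2500 genes therefore differ from those given above, which keep the members measured in all included cells. With a pseudocount of 0.1, the shares were 1.41% higher in CD4 and 56.3% higher in CD8 in WT, 8.03% higher in CD4 and 20.5% higher in CD8 in KO and 14.8% higher in CD8 in both genotypes. Helper 3.22 in KO, NK-type -1.93 in WT, regulatory 2.44 in KO and immediate early 2.34 in WT were the list medians. With a pseudocount of 10, the shares were 0.384% higher in CD4 and 10.1% higher in CD8 in WT, 1.19% higher in CD4 and 1.59% higher in CD8 in KO and 0.284% higher in CD4 and 1.08% higher in CD8 in both genotypes. Helper 1.24 in KO, NK-type -0.69 in WT, regulatory 0.99 in KO and immediate early 0.85 in WT were the list medians. With genes in 10% of cells, the list medians were helper 1.43 in KO, NK-type -0.77 in WT and regulatory 0.73 in KO. Without a filter on low values, the list medians were co-receptors 0.43 in WT, T cell receptor -1.24 in WT, helper 0.22 in KO, NK-type -0.18 in WT and -0.21 in KO, co-stimulatory 0.14 in WT, homing -0.17 in KO, MHC class I -1.31 in WT, interferon 0.10 in WT, regulatory 0.32 in KO, immediate early 0.56 in WT, ribosomal -1.05 in WT, respiratory -1.47 in WT and GIMAP -0.76 in WT. With at least 1500 genes per cell, the shares were 2.87% higher in CD4 in WT, 7.05% higher in CD4 in KO and 1.09% higher in CD4 in both genotypes. Co-stimulatory 1.39 in KO and glycolysis 0.23 in WT were the list medians. Signs turned for Gapdh 0.33 in WT and Psme2 0.85 in WT. With Foxp3-positive cells included, the shares were 1.54% higher in CD4 in WT, 8.24% higher in CD4 and 4.55% higher in CD8 in KO and 1.44% higher in CD4 and 3.17% higher in CD8 in both genotypes. Co-inhibitory 0.29 in WT, co-stimulatory 1.17 in WT, naive -0.22 in WT, regulatory 2.52 in WT and 2.26 in KO, immediate early 0.89 in WT, ribosomal -1.28 in WT, glycolysis 0.12 in WT and GIMAP 0.39 in WT were the list medians. Signs turned for Cxcr6 -0.15 in KO, Gimap7 0.46 in WT, Gzmb 0.10 in WT, Gzmb 1.23 in KO and Ltb 0.96 in WT. With cells of 1 co-receptor, the shares were 6.75% higher in CD4 in KO. Glycolysis 1.29 in KO were the list medians. At equal numbers of genes, the shares were 6.4% higher in CD4 and 12.4% higher in CD8 in WT, 9.30% higher in CD4 and 4.48% higher in CD8 in KO and 1.76% higher in CD4 and 1.76% higher in CD8 in both genotypes. Co-receptors 0.013 in WT, MHC class I -0.069 in WT, glycolysis 0.85 in WT and 1.05 in KO and respiratory 0.40 in WT were the list medians. Signs turned for Atp5g3 0.71 in WT, Calr 0.48 in WT, Cox7a2 1.09 in WT, Cox7c 0.66 in WT, Eno1 0.24 in WT, Fasl 0.22 in WT, Gapdh 0.91 in WT, Gpi1 0.25 in WT, Hmgb2 0.095 in WT, Ifi47 0.40 in WT, Itgb2 0.20 in WT, Pdia3 0.15 in WT and Psme2 0.46 in WT. Relative to the median gene, the shares were 5.27% higher in CD4 and 10.6% higher in CD8 in WT, 6.55% higher in CD4 and 5.12% higher in CD8 in KO and 1.34% higher in CD4 and 1.99% higher in CD8 in both genotypes. With log2 of the mean FPKM plus 1, the shares were 5.08% higher in CD4 and 23.2% higher in CD8 in WT, 8.71% higher in CD4 in KO and 1.39% higher in CD4 and 3.50% higher in CD8 in both genotypes. T cell receptor 0.052 in WT, helper 3.11 in KO, cytotoxic -1.58 in WT, MHC class I 0.037 in WT, respiratory -0.25 in WT and GIMAP 0.43 in WT and -0.052 in KO were the list medians. Signs turned for Fasl 0.042 in WT, Gimap4 0.058 in WT, Il10ra 0.041 in WT, Il2rg 0.16 in KO, Ltb 0.17 in WT, Ly6c1 0.62 in WT, Psme2 0.32 in WT and Ptpn6 0.027 in KO. With cells of 1500 to 2500 genes, the shares were 9.11% higher in CD4 and 14.7% higher in CD8 in WT, 7.68% higher in CD4 in KO and 1.87% higher in CD4 and 2.92% higher in CD8 in both genotypes. Co-inhibitory 0.78 in WT, co-stimulatory 1.42 in WT and 1.43 in KO, effector factor 0.40 in WT, MHC class I -0.15 in WT, regulatory 1.57 in WT, glycolysis 0.56 in WT and 0.98 in KO and cell cycle 0.024 in WT were the list medians. Signs turned for Atp5g3 0.040 in WT, Cd96 1.10 in WT, Cxcr6 0.25 in WT, Gapdh 0.89 in WT, Gpi1 0.28 in WT, Hcst 0.37 in WT, Hmgb2 0.032 in WT, Itgb2 0.17 in WT, Lat 0.33 in WT, Ltb 0.79 in WT, Psme2 1.19 in WT and Tox 0.54 in WT. At 10 FPKM, Cd8b1 stood at 2.56% in WT CD4 and 5.56% in KO CD4. Depth limits single genes in single cells: a gene found in none of 39 cells may be present in up to 7.69% of them by counting alone.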

Other observations

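Genes high in regulatory T cells stood higher in conventional CD4 than in CD8 cells in KO, although Foxp3-positive cells had been left out. Of 6 measured in KO, 5 had the higher mean in CD4 cells, 4 by at least 1, and the median was 1.5. In WT 3 of 6 were higher, 1 by at least 1, and the median was -0.31. Of all genes, 36.4% had the higher mean in CD4 cells in KO, 3.96% by at least 1, and the median was -0.20. In WT these values were 11.9%, 0.875% and -0.73. The list medians of WT and KO were 0.68 and 1.95 at equal numbers of genes and 1.43 and 1.83 in the 1500 to 2500 gene range, on the CD4 side in both. The members Tnfrsf4 and Tnfrsf18 are also induced on activated conventional T cells. Capg, an actin-capping protein, was at -0.79 in WT and 0.78 in KO, and at 1.03 and 1.57 at equal numbers of genes.

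Ass1, the enzyme that makes argininosuccinate in arginine synthesis, was among the 15 genes highest in CD4 cells in both genotypes. It was found in 38.5% (15 of 39) and 46.3% (25 of 54) of the CD4 cells of WT and KO, beside 24.4% (22 of 90) and 25.6% (21 of 82) of the CD8 cells, with a difference of 1.19 in WT and 1.61 in KO. Ramp3, a partner of calcitonin-type receptors, differed by 2.07 in WT and 2.20 in KO and was found in 33.3% and 38.9% of the CD4 cells of WT and KO, beside 7.78% and 15.9% of the CD8 cells. Itgb3, an integrin chain known from platelets, differed by 1.45 in WT and 1.47 in KO and was found in 35.9% and 44.4% of the CD4 cells of WT and KO, beside 7.78% and 17.1% of the CD8 cells. All 3 had the higher mean in CD4 cells also among cells with 1500 to 2500 genes, at 1.63 and 1.16 for Ass1, 1.90 and 2.41 for Ramp3 and 1.61 and 1.29 for Itgb3.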
